A study of Mus musculus with 6 samples.

Results

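Transcripts of polyamine synthesis and turnover were examined in myeloma cells of the mouse, malignant counterparts of the plasma cells that secrete antibodies. The named genes were Odc1, Amd1, Srm, Sms, Sat1, Oaz1 and Oaz2, chosen because the pathway is known to be linked to the transcription factor MYC. Probe sets were taken where the platform annotation gave 1 of these symbols and no other, which left 8 probe sets of 5 genes (Odc1, Srm, Sat1, Oaz1 and Oaz2) out of 22626 probe sets and 12393 genes. No probe set was listed for Amd1, 3 probe sets named Sms together with another symbol and 1 further probe set named Oaz1 together with another symbol. Those 4 were not used here, so Amd1 and Sms were not analysed here.

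The IGF-1 group (3 arrays) spent 12 h in medium lacking serum but holding IGF-1 at 100 ng/ml, a hormone of the insulin family on which myeloma cells depend for growth and survival. The control group (3 arrays) spent the same time in that medium with no IGF-1. Both groups were thus deprived of serum, and the labels describe both as malignant plasma cells from bone marrow. No mouse strain, age or tumour line was given in the sources used here, and nothing says whether the replicates were separate cultures, so the spread on which p-values rest may be technical alone. Values are MAS5 signals of 1-colour Affymetrix arrays on a linear scale, and differences are log2(signal + 15.57) in IGF-1 arrays minus control arrays.

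Polyamines (putrescine, spermidine and spermine) are small positively charged molecules that bind nucleic acids and are needed for growth. Ornithine decarboxylase, encoded by Odc1, makes putrescine, and the aminopropyl groups donated by the Amd1 product are added by spermidine synthase (Srm) and spermine synthase (Sms). The acetyltransferase encoded by Sat1 starts their breakdown and export. Antizymes (Oaz1, Oaz2) bind ornithine decarboxylase and target it to the proteasome, their translation being raised by polyamines through a frameshift, and the antizyme inhibitor Azin1 sequesters them.

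To show the regulatory sequence in front of genes that do and do not make polyamines, 250 bases upstream of the start site are printed for Odc1, which makes them, and for Oaz1 and Sat1, which limit them. They are RefSeq sequences of build GRCm38.p6, read 5′ to 3′ on the gene's strand. The window of Odc1 was chr12:17544623-17544872 on the + strand, that of Oaz1 chr10:80826406-80826655 on the + strand and that of Sat1 chrX:155216450-155216699 on the - strand. Capitals mark each GC box, the letters GGGCGG or its complement CCGCCC, known from sites of the factor SP1.
Odc1: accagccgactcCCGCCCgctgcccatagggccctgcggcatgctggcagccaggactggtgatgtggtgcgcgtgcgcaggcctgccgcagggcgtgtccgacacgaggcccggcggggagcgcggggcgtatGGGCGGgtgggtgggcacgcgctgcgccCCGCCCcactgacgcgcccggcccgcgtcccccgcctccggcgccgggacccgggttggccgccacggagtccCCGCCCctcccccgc
Oaz1: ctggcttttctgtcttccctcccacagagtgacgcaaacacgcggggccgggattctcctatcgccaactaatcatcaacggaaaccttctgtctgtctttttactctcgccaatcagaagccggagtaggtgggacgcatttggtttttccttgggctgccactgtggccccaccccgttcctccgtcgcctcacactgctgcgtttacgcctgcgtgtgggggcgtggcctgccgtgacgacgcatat
Sat1: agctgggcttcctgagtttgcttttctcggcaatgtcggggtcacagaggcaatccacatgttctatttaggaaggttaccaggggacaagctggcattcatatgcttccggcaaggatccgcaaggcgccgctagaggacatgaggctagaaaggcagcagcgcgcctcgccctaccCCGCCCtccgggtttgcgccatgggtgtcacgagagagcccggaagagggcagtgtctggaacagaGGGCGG
The Odc1 window held 4 GC boxes, the Sat1 window 2 and the Oaz1 window 0. The window of Oaz2, not printed, held 3. Of 32841 upstream windows of this length in the table, 32.7% held at least 1 GC box on either strand and 4.09% held 4 or more. The E-box CACGTG, which reads the same on both strands and is the letter sequence that MYC binds with its partner MAX, was in 6.02% of all windows. It was in none of the Odc1, Oaz1, Sat1 and Oaz2 windows. Of genes described below, the window of Aldh18a1 and both windows of Nme1 held 1 E-box each, and that of Slc3a2 held 0. The windows of Eif5a, some of which overlap, held 0 or 1. No window was available for Srm or Azin1. The E-boxes by which MYC is known to bind the mouse Odc1 gene lie in its first intron, outside this window. These are matches of letters, and no match overlapped another within a window.

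Of the 5 genes, both that make polyamines were higher with IGF-1 (Odc1 and Srm) and the 3 that limit or remove them (Sat1, Oaz1 and Oaz2) did not pass the test. All 8 probe sets passed the filter on dim signals. By limma with Benjamini-Hochberg adjustment over 11313 probe sets, 3 of the 8 probe sets rose and 0 fell (3 higher and 0 lower at an unadjusted p under 0.05), where 6.82% of all tested probe sets rose and 8.28% fell. At 1 probe set per gene, its brightest, 2 of 5 genes rose and 0 fell, against 7.05% and 8.05% of 6895 genes. With 5 genes such counts are a description of these genes and not of a group. For counts at an unadjusted p under 0.05, here and below, no share over all genes is given. Those counts can thus not be set against the array as a whole. The median log2 difference of the 5 genes was 0.09, and that of all genes tested was -0.01, with an interquartile range from -0.19 to 0.17.

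Odc1 encodes the rate-limiting enzyme of the pathway. Its brightest probe set gave signals of 1678, 1530.4 and 1359 in IGF-1 arrays 1, 2 and 3, against 1203, 975 and 1240 in control arrays 1, 2 and 3. The lowest IGF-1 array lay above the highest control array, so the groups did not overlap, as was the case for 34.8% of all tested probe sets, 16.1% with IGF-1 higher. The means were 1522 ± 159.7 with IGF-1 and 1139.5 ± 143 in control (SD, n = 3 each), 1.34 times as high. The log2 difference was 0.42 ± 0.12 (standard error, 95% interval 0.16 to 0.67, limma adjusted p = 0.038). The call was lost without control 2 (0.31, adjusted p = 0.107), without IGF-1 1 (0.34, adjusted p = 0.114) and without IGF-1 2 (0.41, adjusted p = 0.109). It was also lost with no filter on dim signals (limma adjusted p = 0.0989), with quantile normalization (limma adjusted p = 0.0718) and with no intensity trend (limma adjusted p = 0.0678).

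The other 2 probe sets of Odc1 were also higher on average with IGF-1, and 1 of them passed. The dimmest gave 177, 130.3 and 174 with IGF-1, against 101, 117 and 117 in control. Its groups did not overlap, and IGF-1 2 stood closer to the control arrays than to the other IGF-1 arrays. The log2 difference of this probe set was 0.46 ± 0.14 (limma adjusted p = 0.047), a call that held without IGF-1 2 and in no other case when 1 array was left out (highest adjusted p 0.148). The remaining probe set, whose name ends in x_at because some of its probes also match other sequences, gave 643, 476 and 454 with IGF-1, against 474, 415 and 446 in control. Here IGF-1 1 stood above all other arrays, and IGF-1 3 lay below control 1, so the groups overlapped. Its log2 difference was 0.22 ± 0.13 (95% interval -0.08 to 0.51, limma adjusted p = 0.31). With the mean of the 3 probe sets as the value of the gene, the log2 difference was 0.36 and passed (limma adjusted p = 0.0372).

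Srm, spermidine synthase, turns putrescine into spermidine and was measured by 1 probe set. Its signals were 1517, 1473 and 1406 with IGF-1, against 1149, 1074 and 1113 in control. The gap between the groups was wider than the spread within either, with a coefficient of variation of 3.79% among IGF-1 arrays and 3.38% among control arrays. The means were 1465 ± 55.6 with IGF-1 and 1112 ± 37.5 in control (SD, n = 3 each), 1.32 times as high with IGF-1. The log2 difference was 0.39 ± 0.08 (95% interval 0.21 to 0.58, limma adjusted p = 0.012), and it passed with any 1 array left out (adjusted p 0.0197 to 0.0497).

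These changes were small among the genes that rose. Of the 486 genes that rose, 375 rose by more than Odc1 and 404 by more than Srm. In an exact two-sided permutation test over the 6 arrays both gave p = 0.1, the smallest that 3 arrays against 3 allow.

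Sat1 encodes spermidine/spermine acetyltransferase, which marks polyamines for oxidation or export. Its signals were 521, 521 and 537 with IGF-1, against 506, 642 and 582 in control. The 3 IGF-1 arrays lay close together (coefficient of variation 1.74%), the control arrays were spread around them (11.9%), and the groups overlapped. The log2 difference was -0.12 ± 0.10 (95% interval -0.35 to 0.11, limma adjusted p = 0.47). It turned to 0.16 under scaling to hybridization controls, a setting described under the antizymes.

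Oaz1, the main antizyme, had signals of 2839.7, 2846 and 2714 with IGF-1, against 2472, 2573 and 2846 in control. Control 3 matched the IGF-1 arrays and control 1 and 2 lay below them, so the groups overlapped. The log2 difference was 0.09 ± 0.09 (95% interval -0.10 to 0.28, limma adjusted p = 0.52). The interval leaves room for a rise of up to 0.28 and a fall of up to 0.10 on the log2 scale.

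Oaz2, a second antizyme that also binds ornithine decarboxylase, was measured by 2 probe sets. The brighter gave 291, 314 and 302 with IGF-1, against 309, 292 and 347 in control, and the dimmer gave 170.5, 159.6 and 143 with IGF-1, against 172, 178 and 152 in control. The groups overlapped in both. The log2 differences were -0.06 ± 0.10 (limma adjusted p = 0.75) and -0.08 ± 0.11 (limma adjusted p = 0.69). Without control 3 the brighter probe set was at 0.01.

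MAS5 scaling gives all arrays 1 common mean signal, so each difference is relative to the other transcripts. Scaling to the hybridization controls instead, bacterial and phage transcripts added at a set amount, raised the median difference of all probe sets by 0.26. With it 2740 probe sets rose and 242 fell, where 772 rose and 937 fell under MAS5 scaling. Srm was then at 0.68, Odc1 at 0.70, Oaz1 at 0.38, Oaz2 at 0.22 and Sat1 at 0.16 (log2), and Oaz1 passed (limma adjusted p = 0.0196). This setting multiplies each array by 1 factor, so it moves all genes by about the same amount and their order does not test anything.

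**Figure D1:**
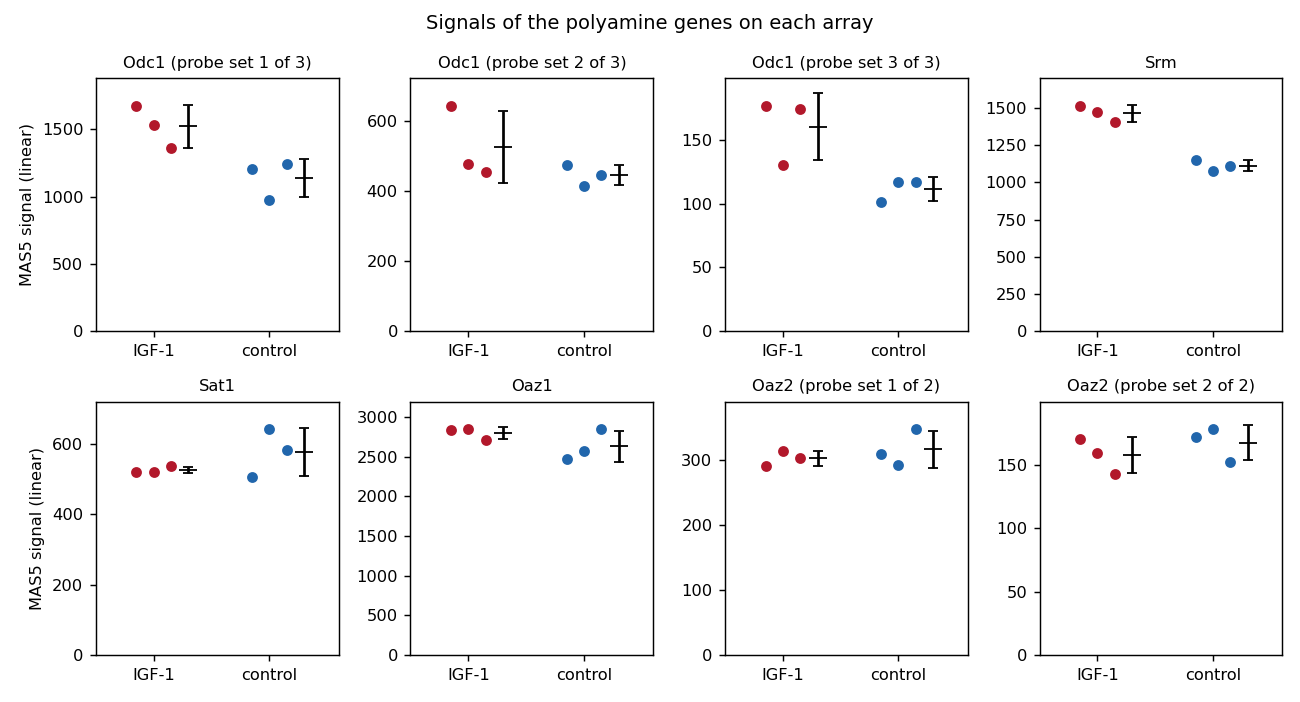
MAS5 signal (linear) of the 8 probe sets on each array, IGF-1 arrays in red and control arrays in blue in the order 1, 2, 3. The bars beside them are mean ± SD of 3 arrays. Srm and 2 probe sets of Odc1 are higher in all 3 IGF-1 arrays than in every control array, and the groups of the other 5 probe sets overlap.

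**Figure D2:**
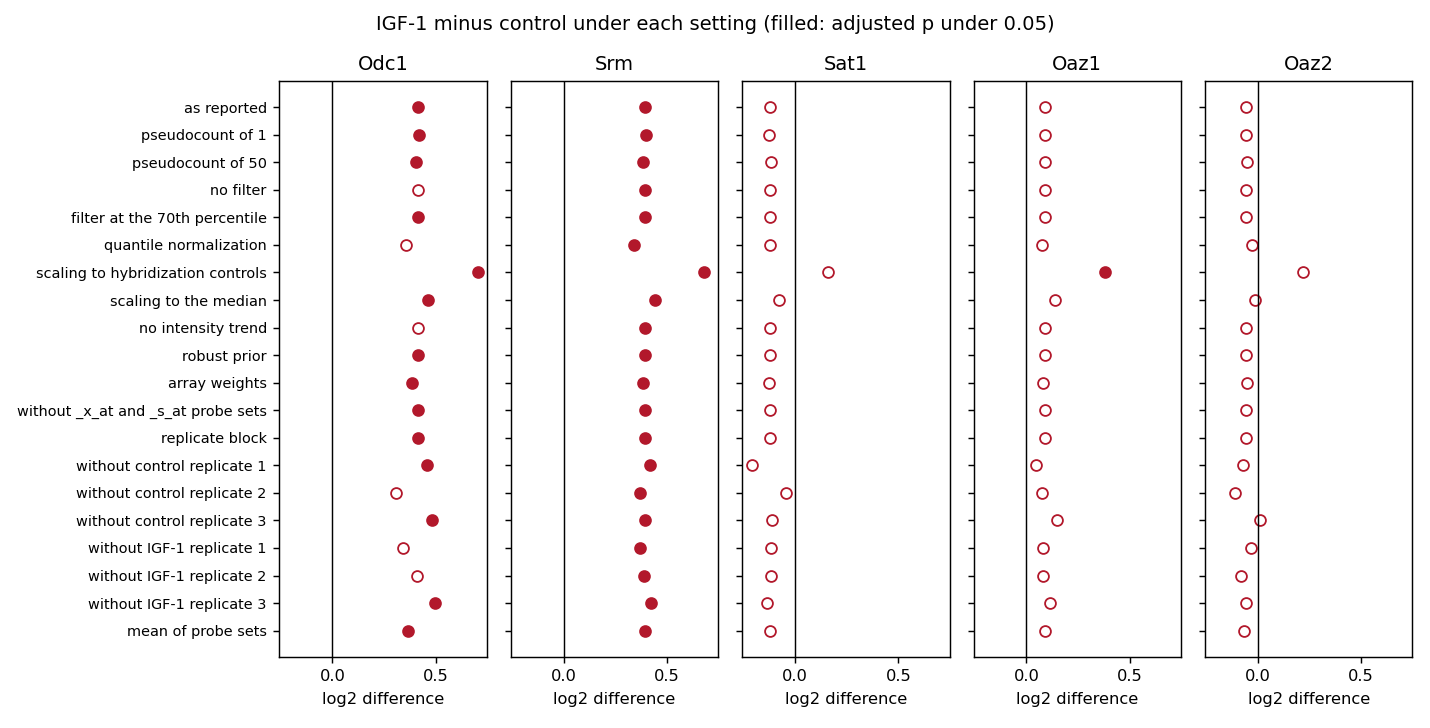
Log2 difference (IGF-1 minus control) of the brightest probe set of each gene under each processing setting, with filled points where the adjusted p was under 0.05. Srm is filled in every row shown, Odc1 is open in 6 rows, and Sat1 and Oaz2 lie to the right of 0 with scaling to the hybridization controls.

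Regulators around ornithine decarboxylase gave 1 rise. Of the 7 genes listed as antizyme inhibitors, other antizymes or polyamine oxidation, 3 had a probe set with 1 symbol and 2 were tested, of which 1 rose and 0 fell, also at an unadjusted p under 0.05 (median log2 difference 0.25). Azin1, the antizyme inhibitor, resembles ornithine decarboxylase but has no enzyme activity and frees it from antizyme. Its brighter probe set gave 574, 554 and 546 with IGF-1, against 355, 458 and 415 in control. All IGF-1 arrays stood above all control arrays, with a log2 difference of 0.44 ± 0.11 (limma adjusted p = 0.022), and the other probe set passed as well at 0.42 (limma adjusted p = 0.027). The brighter probe set no longer passed with no filter (limma adjusted p = 0.051) or when control 1 or 1 of the IGF-1 arrays was left out (adjusted p up to 0.0662), and the other held in 1 of the 6 fits that left out an array, the one without control 2 (adjusted p up to 0.081). Smox, spermine oxidase, had 94.5, 125 and 102 with IGF-1, against 90.9, 91.9 and 123 in control, a log2 difference of 0.07 ± 0.15 (limma adjusted p = 0.81). Aoc1, a diamine oxidase, lay below the signal filter of 53.61.

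Spermidine is also the donor for hypusine, a modified lysine of the translation factor eIF5A. Of 3 tested genes in this group, 0 rose and 0 fell at their brightest probe set by limma (median log2 difference 0.14). At an unadjusted p under 0.05, 1 was higher and 0 were lower. Eif5a, the factor itself, gave 3795, 3848 and 3650.1 with IGF-1, against 3377, 3022 and 3321 in control. The groups did not overlap, but the log2 difference of 0.22 ± 0.08 did not pass (limma adjusted p = 0.10). With scaling to the hybridization controls it was 0.51 and passed (limma adjusted p = 0.00294), so that 1 gene of this group rose. A dimmer probe set of Eif5a passed at 0.33 ± 0.09 (limma adjusted p = 0.031), a call that held only without IGF-1 1 when 1 array was left out. Dhps and Dohh, the enzymes of the 2 steps of hypusine formation, had differences of -0.11 ± 0.12 and 0.14 ± 0.18, neither of which passed.

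Genes that supply ornithine moved in both directions. Of 6 tested, 1 rose, 2 fell and 3 did not pass (median log2 difference 0.02). Arg1 and Arg2, the cytosolic and mitochondrial arginases that make ornithine from arginine, fell. Arg1 gave 80.2, 98.8 and 127 with IGF-1, against 145, 161 and 193 in control, and Arg2 gave 36.4, 44.5 and 47.7 with IGF-1, against 55.4, 83.3 and 85.6 in control. The groups overlapped in neither gene. The log2 differences were -0.64 ± 0.16 (limma adjusted p = 0.025) and -0.62 ± 0.18 (limma adjusted p = 0.042). Every IGF-1 signal of Arg2 lay below the signal filter of 53.61, and every control signal lay above it. The mean of Arg2 over all arrays thus passed the filter only through the control arrays, which limits what its call can show. With 1 array left out, Arg1 passed only when that was control 1 or IGF-1 3 (adjusted p up to 0.0819 otherwise), and Arg2 only when it was control 1 (adjusted p up to 0.143 otherwise). Both also missed the threshold with scaling to the hybridization controls (log2 differences -0.38 for Arg1 and -0.39 for Arg2) and with no filter (limma adjusted p = 0.0807 for Arg1 and 0.118 for Arg2), Arg2 missed it with quantile normalization (0.052) and scaling to the median (0.0504), and neither was bright enough to be tested with the 70th percentile filter.

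Arginase transcripts are known from macrophages and neutrophils, and markers of those cells were present and partly lower in the same arrays. Of 8 macrophage and monocyte markers, 4 fell (Csf1r, Cd14, Itgam and Ccr2), 1 rose (Cd68) and 3 did not pass. These calls are at the brightest probe set, where 8.05% of all tested genes fell and 7.05% rose. Dimmer probe sets of Csf1r, at -0.43 and 0.15, did not pass (limma adjusted p = 0.091 and 0.57). Nor did a dimmer one of Ccr2, at -0.42 (limma adjusted p = 0.20). Of the 8 markers only 1 fell with no filter, with scaling to the hybridization controls, or without control 2, control 3, IGF-1 1 or else IGF-1 2. With quantile normalization 2 fell, and without IGF-1 3 5 fell. Cd68 missed the threshold without IGF-1 2 (limma adjusted p = 0.0519). Their summed signal was 4839 to 6623 in IGF-1 arrays and 5624 to 7469 in control arrays. Of 8 neutrophil markers 1 fell, Ltf, against 0 with scaling to the hybridization controls or without IGF-1 2, 2 without IGF-1 3 and 3 with quantile normalization, and their summed signal was 21249 to 23461 in IGF-1 arrays and 23108 to 27309 in control arrays. All 8 listed markers of each type passed the filter. S100a9, the brightest neutrophil marker, had a mean signal of 6872, and Xbp1, the brightest plasma cell marker, had 4635. The part of these cells in the arginase result was not tested, nor was their part in the results for Odc1, Srm, Azin1, Myc and the other genes. In such bulk samples fewer cells of a type and less RNA per cell cannot be told apart.

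Aldh18a1, which makes the glutamate-derived precursor of both ornithine and proline, rose. Its brightest probe set gave 731, 585 and 498 with IGF-1, against 422, 318 and 329 in control, a log2 difference of 0.73 ± 0.15 (limma adjusted p = 0.011) that passed with any 1 array left out. Of its 4 tested probe sets, 2 others passed, both at 0.76, and the dimmest, at 0.34, did not (limma adjusted p = 0.17). Of those 2, an x_at probe set lost its call without control 1, control 2 or IGF-1 1. The remaining one lost it without control 2 or IGF-1 2. The brightest and the dimmest are x_at probe sets too, with some probes that also match other sequences. Oat, which links ornithine to proline and glutamate, gave 614, 635 and 641 with IGF-1, against 608, 596 and 519 in control. Its difference of 0.13 ± 0.09 did not pass (limma adjusted p = 0.39), nor did those of Asl (-0.10 ± 0.15), the last enzyme of arginine synthesis, and Slc25a15 (0.21 ± 0.15), the mitochondrial ornithine carrier. Agmat, Otc, Prodh, Slc7a1 and Slc7a2 lay below the filter.

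Each aminopropyl transfer uses decarboxylated S-adenosylmethionine and releases methylthioadenosine, which cells return to methionine. Of 8 tested genes of the methionine cycle and this salvage route, 0 rose and 0 fell by the limma test (median log2 difference 0.08). At an unadjusted p under 0.05, 1 was higher and 0 were lower. The number that rose was 1 with no filter and 3 under hybridization control scaling. Bhmt, Enoph1 and Mat1a lay below the filter and were thus tested only without it. Bhmt had 17.9, 20.8 and 13.4 with IGF-1, against 5.49, 2.26 and 1.79 in control. Of the 8 tested genes, Mtap, the phosphorylase that opens the salvage route, came nearest. Its brightest probe set gave 714, 674 and 691 with IGF-1, against 565, 582 and 567 in control, without overlap between the groups. The log2 difference was 0.27 ± 0.08 (95% interval 0.08 to 0.46, limma adjusted p = 0.055), and its 4 probe sets ranged from -0.05 to 0.27. It passed with the 70th percentile filter (limma adjusted p = 0.0429) and under hybridization control scaling (limma adjusted p = 0.00652), but not with no filter. Mri1, the next enzyme of the route, was at -0.21 ± 0.10 (limma adjusted p = 0.18) and Ahcy, which clears S-adenosylhomocysteine, at 0.06 ± 0.10 (limma adjusted p = 0.74).

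Of 4 tested genes listed for polyamine transport, 1 rose, 0 fell and 3 did not pass by limma (median log2 difference -0.05), with 1 higher and 1 lower at an unadjusted p under 0.05. Slc3a2, the heavy chain of amino acid exchangers that has also been linked to polyamine export, gave 4268, 4973 and 4385 with IGF-1, against 3037, 2833 and 3119 in control. All IGF-1 arrays were clear of the control arrays, with a log2 difference of 0.60 ± 0.09 (limma adjusted p = 0.0027) that passed with any 1 array left out. Atp13a2, a lysosomal polyamine exporter, gave 240, 203 and 273 with IGF-1, against 324, 301 and 312 in control. That difference was -0.38 ± 0.12 (limma adjusted p = 0.056), and it passed without IGF-1 3 (adjusted p = 0.0424) and with the 70th percentile filter (limma adjusted p = 0.0465). The other 2 probe sets of Atp13a2 lay on the other side of 0, at 0.05 and 0.07 (limma adjusted p = 0.81 and 0.73). Atp13a3, a related transporter, was at -0.03 ± 0.10, and Cav1, a membrane protein linked to polyamine uptake, at -0.06 ± 0.15.

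**Figure D3:**
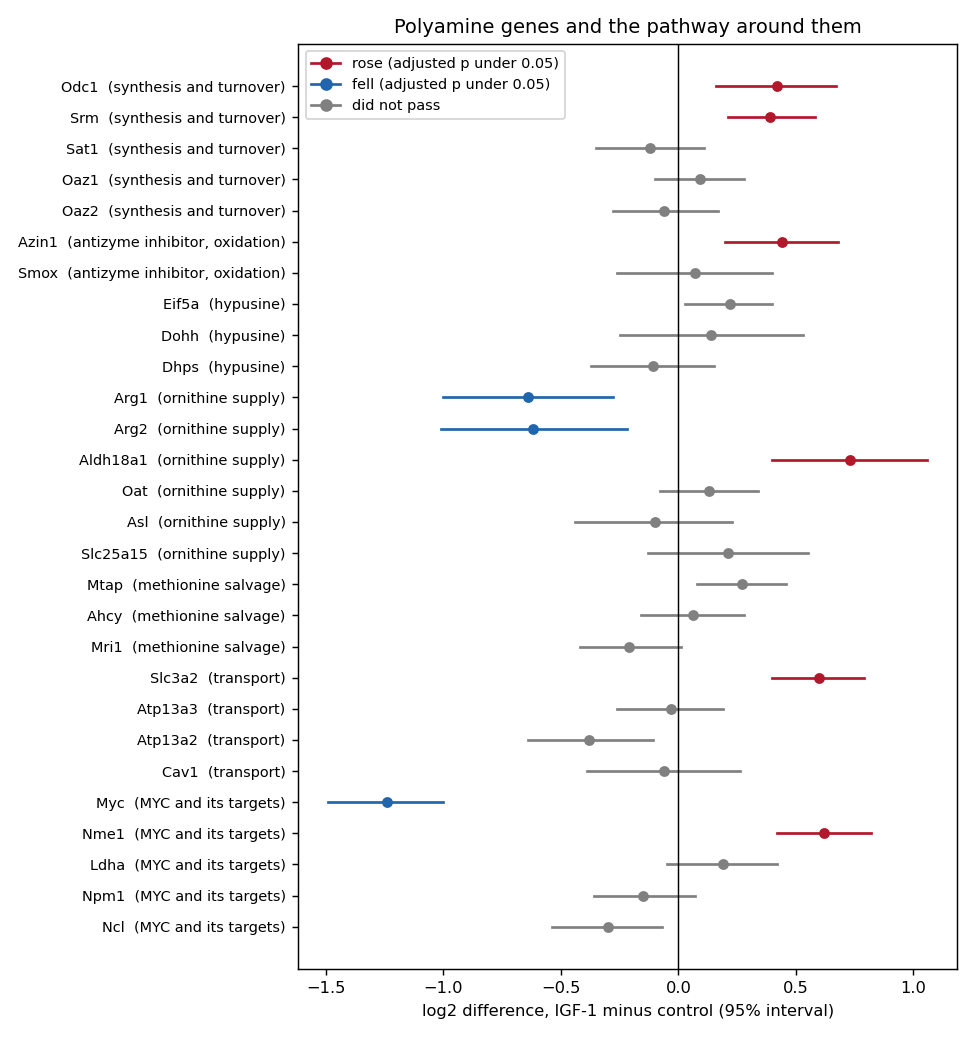
Log2 difference (IGF-1 minus control) of the brightest probe set of each named gene with its 95% interval, grouped by role. Red marks genes that rose, blue genes that fell and grey genes that did not pass. Odc1 (0.42), Srm (0.39) and Azin1 (0.44) lie to the right of 0, and Myc (-1.24) lies furthest to the left of the genes drawn.

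Odc1 and Srm are textbook targets of MYC, and Myc itself moved the other way. Its signals were 329.9, 311 and 284 with IGF-1, against 858, 684 and 716 in control, a log2 difference of -1.24 ± 0.11 (limma adjusted p = 0.00014) from 1 probe set. The highest IGF-1 array lay well below the lowest control array. Of the 15 genes listed as MYC and its textbook targets, 1 rose, 1 fell (Myc) and 13 did not pass, with a median log2 difference of 0.12. At an unadjusted p under 0.05, 3 were higher and 3 lower. The number that rose was 7 with scaling to the hybridization controls, 3 without control 1, and 2 without IGF-1 1, with quantile normalization or without x_at and s_at probe sets, and 2 fell with quantile normalization. The gene that rose was Nme1, a nucleoside diphosphate kinase, at 0.62 ± 0.09 (limma adjusted p = 0.0025). Dimmer probe sets also rose for Shmt2, a mitochondrial enzyme of folate metabolism, at 0.76 (limma adjusted p = 0.014), and for Cdk4, a cell cycle kinase, at 0.46 (limma adjusted p = 0.044), while their brightest ones did not pass at 0.33 and 0.30 (limma adjusted p = 0.095 and 0.064). With 1 array left out, this Shmt2 call was lost only without control 2. The Cdk4 call held only without control 1 (adjusted p up to 0.143 otherwise). A further tested probe set of Shmt2, at 0.23 (limma adjusted p = 0.29), and one of Cdk4, at 0.29 (limma adjusted p = 0.18), did not pass. Ldha (0.19 ± 0.11), which makes lactate, and the nucleolar genes Npm1 (-0.15 ± 0.10) and Ncl (-0.30 ± 0.11) did not pass (limma adjusted p = 0.26, 0.36 and 0.085).

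The genes whose profile lay nearest to that of Odc1 were found by the root mean square difference between log2 signals over the 6 arrays, each profile centred on its own mean. These were Mtmr4 (0.056), a phosphoinositide phosphatase, Agpat3 (0.057), an acyltransferase of phospholipid synthesis, Dynll1 (0.060), a dynein light chain, Ppp1r12c (0.060), a myosin phosphatase subunit, and Dnajb11 (0.061), a chaperone of the endoplasmic reticulum. Their log2 differences between groups ranged from 0.38 for Dynll1 to 0.46 for Agpat3. Ppp1r12c did not pass (limma adjusted p = 0.11). Of the 6 fits that left out an array, the calls of Mtmr4 and Agpat3 held in 1 and those of Dynll1 and Dnajb11 in 3. Srm, at 0.103, was nearer to Odc1 than all but 69 of 6894 genes, and Azin1, at 0.207, had 1291 genes nearer. The measure reflects the difference between groups as well as the spread within them, and over 6 arrays it is a description.

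The arrays as a whole were alike in signal, with median signals from 49.96 to 55.36, and log2 signals of 2 arrays correlated at 0.9777 to 0.9844 in the same group and at 0.9563 to 0.965 in different groups. Plasma cell markers were present, with mean signals between 223 for Prdm1 and 4635 for Xbp1 over the 8 listed ones with a probe set of 1 symbol. Of these 8, 2 fell (Tnfrsf17 and Slamf7) and 0 rose by limma (4 lower and 0 higher at an unadjusted p under 0.05), against 0 and 1 with scaling to the hybridization controls, and their summed signal was 11759.7 to 12249.7 with IGF-1 and 12651 to 13764 in control. T cell markers were all below the filter, at 5.86 to 43.3. Of the 5 mature B cell markers with such a probe set only Cd79b was above the filter, and of the 4 erythroid markers 2 were tested, with 0 calls by limma in either list, also at an unadjusted p under 0.05. Without control 1, 1 erythroid marker fell. Of the plasma cell markers Irf4 and Xbp1, 1 dimmer probe set each fell too, at -0.71 (limma adjusted p = 0.025) and -0.63 (limma adjusted p = 0.0028). With 1 array left out, the Irf4 call held in 3 of 6 fits and the Xbp1 call in all 6. The brightest Irf4 probe set, at -0.17, did not pass (limma adjusted p = 0.46). Nor did the other Xbp1 probe sets, at -0.19, -0.24 and 0.09 (limma adjusted p = 0.16, 0.086 and 0.73). Sdc1 was at 0.14 at its brightest probe set and at 0.26, -0.17 and -0.24 at the others, none of which passed.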

How the data were processed

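The deposited table holds linear intensities, with 1 signal for each probe set on each array. The authors made them with GCOS and MAS5, per the submitters' processing notes, of unstated version and scaling target. Per the labels' protocols, cRNA was made from oligo-dT primed cDNA and labelled with biotin, which weights signals towards the 3′ end. Trimmed of its top and bottom 2%, each array had a mean signal of 150.1. Of 22690 probe sets, 64 controls were left out, 20380 carried 1 symbol, 691 several and 1555 none listed. Gene identifiers of 20351 matched the RefSeq table of GRCm38.p6, which changed 0 symbols.

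Signals were tested as log2(signal + 15.57), the 25th percentile of all signals being the pseudocount, where the mean signal exceeded 53.61, the median. IGF-1 (n = 3) was set against control (n = 3) in limma 3.58.1 under R 4.3.3, using lmFit and eBayes with an intensity trend and a two-sided test, with Benjamini-Hochberg adjustment over 11313 probe sets at 0.05. Adjusted p-values are from this fit, and the low number of arrays limits the precision. Fold changes on this scale understate changes of dim probe sets. The brightest tested probe set stood for its gene. The members and lists were chosen with earlier results of these data known. The text names every probe set of the 7 genes, Myc, every listed gene past the threshold, up to 3 bright genes per list that did not pass and the 5 genes nearest to Odc1. Alternatives changed the pseudocount, filter, scaling, variance model, probe set choice and replicates used. Simulated arrays with known changes, in 20 sets, were used to gauge the error of the fit. It called 48.3% of log2 changes of 0.5 and 97.5% of changes of 1. The share of false calls was 7.07%, above the threshold of 0.05. Changes of 0.5 were thus often missed, and calls near the threshold are less certain than their adjusted p. Tables and plots were made with Python 3.11.15, pandas 2.3.3 and matplotlib 3.10.9. Same-numbered samples did not deviate together throughout (correlations 0.12, -0.0334 and 0.127), so numbers were not taken as pairs.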

Additional observations from a re-analysis of the deposited data

How the results depend on the processing

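Of the 5 genes, Srm kept its call under all 19 alternatives run on it. Odc1 kept its direction under all of them but lost its call with no filter on dim probe sets (0.415, adjusted p = 0.0989), with quantile normalization (0.36, adjusted p = 0.0718), with no intensity trend (0.415, adjusted p = 0.0678) and when control 2, IGF-1 1 or IGF-1 2 was left out (log2 differences 0.31 to 0.49 with 1 array left out). Without a filter or without a trend, 1 of the 8 probe sets and 1 gene rose. With quantile normalization 1 gene rose, and with 1 array left out 1 to 2 probe sets and 1 to 2 genes rose.

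Over all probe sets 772 rose and 937 fell. These counts were 448 and 498 without a filter, 2740 and 242 with scaling to the hybridization controls, and 406 to 659 and 491 to 792 with 1 array left out. Scaling to the hybridization controls gave 5 polyamine probe sets that rose and raised Oaz1 past the threshold (0.38). That scaling also brought the brightest probe sets of Eif5a (0.51), Oat (0.42) and Ldha (0.48) past the threshold. It turned to positive the brightest probe sets of Sat1 (0.16), Oaz2 (0.22), Dhps (0.14), Asl (0.13), Mri1 (0.073), Atp13a3 (0.24), Cav1 (0.17) and Npm1 (0.14), and the dimmer one of Oaz2 (0.19). Of the listed pathway genes 4 rose and 3 fell. With that scaling 15 rose and 1 fell, without a filter 1 fell, and with 1 array left out 3 to 5 rose and 1 to 3 fell. Atp13a3 was at 0.011 with scaling to the median. With 1 array left out, the differences ranged from -0.11 to 0.01 for Oaz2, -0.037 to 0.189 for Smox, -0.204 to 0.012 for Asl, -0.025 to 0.11 for Ahcy, -0.097 to 0.039 for Atp13a3 and -0.12 to 0.03 for Cav1. The cause of these changes was not tested.

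With the replicate number as a block, 754 probe sets rose and 978 fell, 2 polyamine probe sets and 2 genes rose, and Odc1 (adjusted p = 0.0389) and Srm (adjusted p = 0.0199) kept their calls. Probe sets near the lower end of the signal range, such as those of Arg2, are limited by signal over background.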
